A study of Mus musculus with 3 samples.

Results

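Gene expression 2 hours after a dose of 0.02 Gy of gamma radiation was compared with that of unirradiated cells in mouse long-term haematopoietic stem cells, 1 array a side. The cells were sorted from bone marrow by the absence of lineage markers, Flk2 and CD48 and the presence of Kit, Sca and CD150, and all were held overnight in StemSpan SFEM, a serum-free medium, before exposure, so every group had spent that time outside the marrow. The 3 groups were unirradiated cells (0 Gy), low-dose cells (0.02 Gy) and high-dose cells (2.5 Gy). The labels give neither the strain, age and number of the mice nor any genetic change, and whether marrow was pooled is not stated. The genes described are the named genes whose log2 value reached 4.55 on both the unirradiated and the 0.02 Gy array, and 10676 of 23185 named genes, among 25206 probe sets, met that rule. A further 10499 named genes lay below the minimum on both arrays, 758 on the unirradiated array only and 1252 on the 0.02 Gy array only. At the edge of the rule Col3a1 was inside (4.62 unirradiated and 4.55 at 0.02 Gy), and Polr1b was outside, at 4.5499 unirradiated and 5.19 at 0.02 Gy. Because each dose had a single array, no difference below has a replicate check, no test was run and no gene is said to respond to the dose. Levels are log2 signals in the order unirradiated, 0.02 Gy and 2.5 Gy, and a difference is 0.02 Gy minus unirradiated on the log2 scale, where 1 is 2-fold.

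Long-term haematopoietic stem cells are the rare marrow cells that can rebuild all blood lineages for life, and most of them are quiescent in the undisturbed marrow. Ionising radiation breaks DNA, and the kinase ATM and the transcription factor p53 then switch on genes for cell cycle arrest, repair and apoptosis, while NF-κB switches on survival and inflammatory genes. Protein quality control, mitochondrial respiration and the rate of protein synthesis are also known to bear on the fitness of these cells.

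Sorting markers and stem cell genes were read first. Kit, the stem cell factor receptor, was at 8.58, 8.78 and 8.50. Hlf, a stem cell transcription factor, was at 7.21, 7.62 and 7.88, and Meis1, a homeobox partner of HOX proteins, at 7.05, 7.58 and 6.79. Procr, the protein C receptor, was at 5.50, 5.45 and 5.43. These genes reached the minimum on all 3 arrays, as did Mecom, Pdzk1ip1, Vwf, Mllt3, Ctnnal1, Tek, Fgd5 and Esam, the last 3 of which were only just above it on the unirradiated array, and Gprasp2 did not at 2.5 Gy (4.61, 4.68 and 4.10). Slamf1, which encodes the CD150 used in the sort, was at 5.24, 4.75 and 4.84, a difference of −0.49. Of the genes selected against, Cd48 stayed below the minimum (3.62, 3.31 and 3.40), while Flt3, the gene for Flk2, was near it (4.60, 4.95 and 4.93).

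Across the 10676 genes the median difference was 0.047, and 5960 genes (55.8%) were higher at 0.02 Gy than in unirradiated cells. The robust SD of the differences, the median absolute deviation scaled to an SD, was 0.317. By at least 2-fold, 110 genes (1.03%) lay higher and 68 (0.637%) lower. Predicted genes and multigene families, such as olfactory receptors, immunoglobulin segments and microRNA genes, made up 1496 of the 10676 genes and held 28 of the higher and 52 of the lower ones. Among the 9180 genes outside them, 82 (0.893%) passed 2-fold upwards and 16 (0.174%) downwards. Which side was larger depended on the scaling. Of all genes past 2-fold, the higher ones were 61.8% as deposited and 74.4% after median centring, but 45.1% with quantile-normalized arrays (78 against 95) and 44.7% once the difference expected at each level was subtracted (71 against 88). A gene that passed 2-fold upwards as deposited was therefore not always past it under another scaling, and 78 of the 110 still were after quantile normalization.

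The difference rose with the level of the gene. The genes were cut into 10 deciles by the mean of the 2 arrays, and the median difference was −0.015 in the lowest, −0.048 in the second, 0.021 in the fifth, 0.117 in the eighth and 0.221 in the top decile. The share of genes above 0 was 45.0% in the lowest quartile of level and 71.4% in the highest. Outside the families the median went from −0.041 in the second decile to 0.262 in the top decile. It was removed by quantile normalization, which left a median of 0.0047 in the top decile. No gene of the lowest 2 deciles could be 2-fold apart, because both values must reach the minimum, and a 2-fold gap is possible only from a mean level of 5.05 upwards, which 8245 genes had. Most list medians below are therefore read beside the difference expected at that level, taken from a loess curve of difference on level. What remains after that curve is subtracted is called the centred difference. Levels and differences of single genes are as deposited and still contain the level trend, unless they are called centred.

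**Figure D1:**
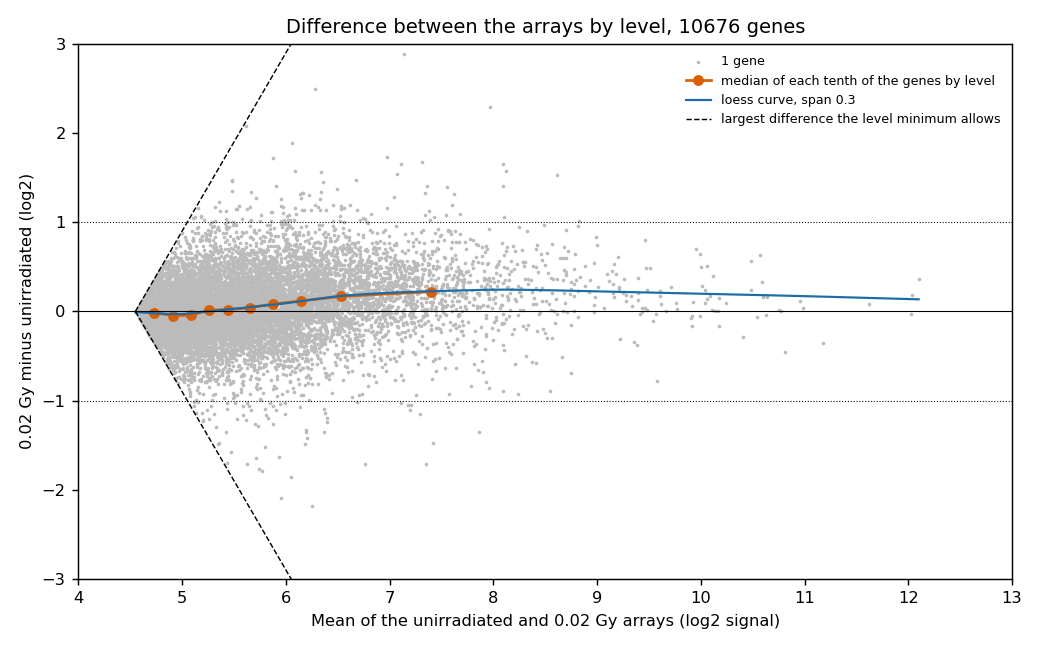
Each grey point is 1 of 10676 genes, with the mean of its log2 signals on the unirradiated and 0.02 Gy arrays on the horizontal axis and 0.02 Gy minus unirradiated (log2) on the vertical axis; orange points are decile medians, the blue line is the loess curve (span 0.3), dotted lines mark 2-fold and dashed lines the largest difference that the minimum of 4.55 allows. The orange medians lie from −0.048 to 0.041 in the lower 6 deciles and climb to 0.221 in the top decile.

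The 10 genes with the highest unirradiated levels had differences between −0.06 and 0.36, 8 of them above 0. Signals of different probe sets do not rank RNAs by abundance. Rn7sk, the small nuclear RNA that restrains the elongation factor P-TEFb, was at 12.05, 12.02 and 12.33. The largest difference among the 10 was that of B2m, the light chain of MHC class I, at 11.9, 12.3 and 12.1. Malat1, a nuclear long non-coding RNA, was at 10.57, 10.51 and 10.56, and the ribosomal protein gene Rplp1 was at 11.94 unirradiated and 12.12 at 0.02 Gy.

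Outside the families, the 20 genes with the highest differences were between 1.32 and 1.73 apart, which is 2.50-fold to 3.33-fold. Smim14 (Entrez gene 68552), which encodes a small integral membrane protein, was at 6.11, 7.84 and 6.32, a difference of 1.73. Nfu1 (56748), a mitochondrial scaffold that hands iron-sulphur clusters to enzymes such as lipoic acid synthase, was at 5.02, 6.73 and 5.95, a difference of 1.72. Smim14 stood apart on the 0.02 Gy array only, while Nfu1 on the 2.5 Gy array lay between the others. Hspa8 (15481), the constitutive HSP70 chaperone, was at 6.47, 8.14 and 8.16, a difference of 1.67, so here the unirradiated array stood apart from both irradiated ones. Psenen (66340), the smallest core subunit of the γ-secretase that cleaves Notch receptors, was at 7.26, 8.92 and 6.92, a difference of 1.65, and its value was lowest on the 2.5 Gy array. Because the 2 irradiated arrays are read against the same unirradiated array, a low value there makes both look high.

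The other protein-coding genes among the 20 fall into a few roles. Membrane and lipid proteins included Tmem234 (5.30, 6.87 and 6.30), the ergosterol pathway homologue Erg28 (7.39, 8.80 and 8.20) and Stard7 (5.80, 7.17 and 6.64), which carries phosphatidylcholine to mitochondria. Vdac1, the main channel of the outer mitochondrial membrane, was at 5.50, 6.83 and 5.84. In these 4 genes the 2.5 Gy array lay between the others. Protein turnover and folding were represented by the E2 ubiquitin-conjugating enzyme Ube2z (5.20, 6.61 and 6.55), the ubiquitin ligase Trim56 (6.86, 8.25 and 7.82) and the J-domain protein Dnajc8 (5.95, 7.41 and 5.99). Rmi1, a partner of the BLM helicase in dissolving recombination intermediates, was at 4.81, 6.16 and 5.69. Thap12, a zinc finger protein (6.30, 7.84 and 6.66), Cables2, which links cyclin-dependent kinases to ABL (4.75, 6.21 and 6.16), and the glutathione transferase Gsto1 (5.49, 6.81 and 5.84) were also among them. Ube2z and Cables2 were nearly as high at 2.5 Gy as at 0.02 Gy, whereas Dnajc8 at 2.5 Gy was close to its unirradiated value.

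As deposited, the differences on the lower side were smaller. Aurkc (20871), an Aurora kinase best known from male meiosis, was at 6.91, 5.49 and 6.51, a difference of −1.42, and no other gene outside the families was as far down. Ly6i, a GPI-anchored protein of the Ly6 family, was at 7.01, 5.78 and 7.01, and the zinc finger gene Zscan25 at 6.95, 5.80 and 6.49. Ndufs3, a core subunit of respiratory complex I, was at 6.43, 5.24 and 5.94. In all 4 the 0.02 Gy array was the low one, and the 2.5 Gy value lay nearer the unirradiated one. The centred differences of Aurkc and Ly6i were −1.55 and −1.39, beside 1.64 for Nfu1 and 1.53 for Smim14 on the higher side. Ribosome and RNA genes on this side were Eif1ad (6.13, 4.93 and 5.66), Dimt1, an 18S ribosomal RNA methyltransferase (5.76, 4.62 and 4.93), and Exosc1, a subunit of the RNA exosome (6.13, 5.11 and 5.46). The heparan sulphate proteoglycans Sdc4 (6.46, 5.43 and 5.80) and Sdc1 (5.89, 4.91 and 5.62) were both lower, and so was the phosphoinositide phosphatase Mtmr14 (6.39, 5.22 and 6.05).

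**Figure D2:**
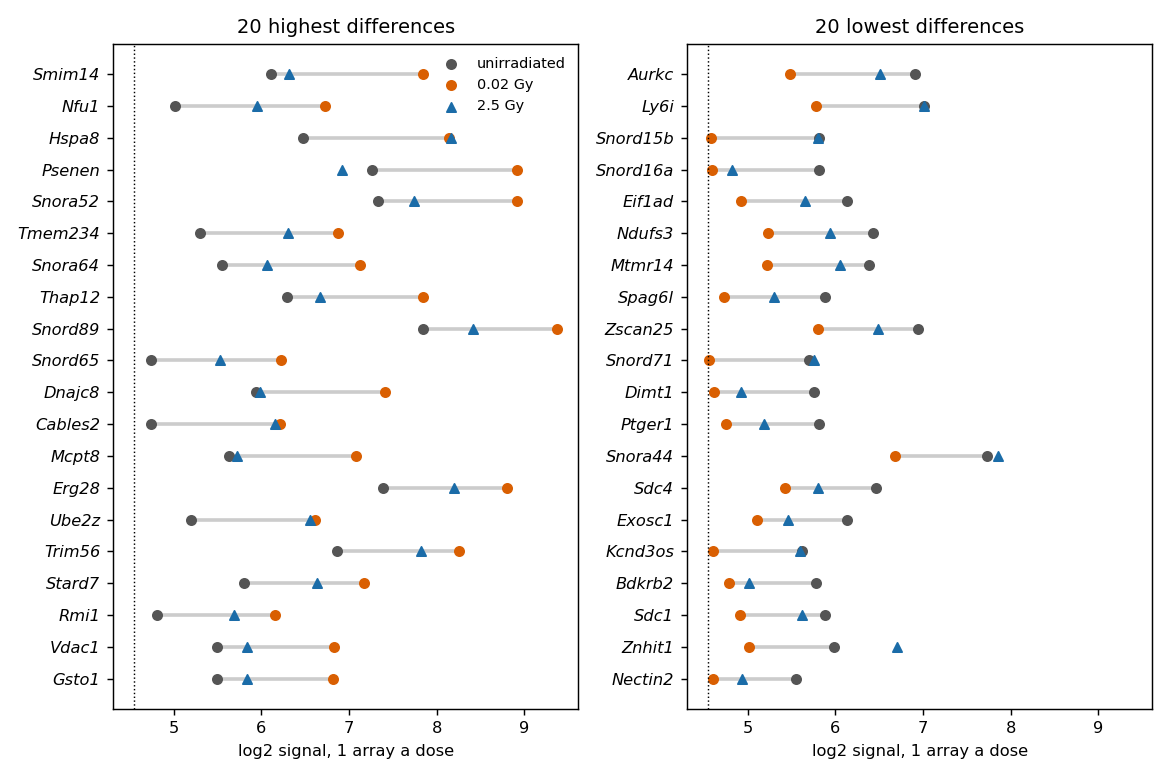
Log2 signal of the 20 genes with the highest (left) and the 20 with the lowest (right) differences outside the families on the unirradiated (grey circle), 0.02 Gy (orange circle) and 2.5 Gy (blue triangle) arrays, 1 array a dose; grey bars join the first 2 and the dotted line is the minimum of 4.55. On the left, Hspa8, Cables2 and Ube2z have blue and orange marks together, and Psenen has blue below grey.

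The genes were then read by function in 43 lists, and 42 of the lists had a median above 0. These medians still contain the level trend. After centring, the list medians ran from −0.14 for NF-κB and inflammation to 0.21 for secretory and endosomal traffic, and 39 were above 0. The curve was fitted to all genes, families included. The centred median was 0.018 for genes outside the families and −0.13 for those within them. A centred list median of about 0.02 is therefore that of any gene outside the families. Of 1675 genes on these lists, 32 (1.91%) passed 2-fold upwards and 6 (0.358%) downwards, beside 1.03% and 0.637% of all 10676 genes and 0.893% and 0.174% of those outside the families. The lower share was thus below the first background and above the second. Neither background was matched for level, and among all genes the share 2-fold higher went from 0% in the lowest decile to 2.34% in the top decile. With shares this low, a list without a gene past 2-fold is not set apart from genes in general. Small nucleolar and Cajal body RNAs made up 7 of the 32 and 4 of the 6. How far level and these RNAs account for the 1.91% was not tested. The lists are described here and were not tested.

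**Figure D3:**
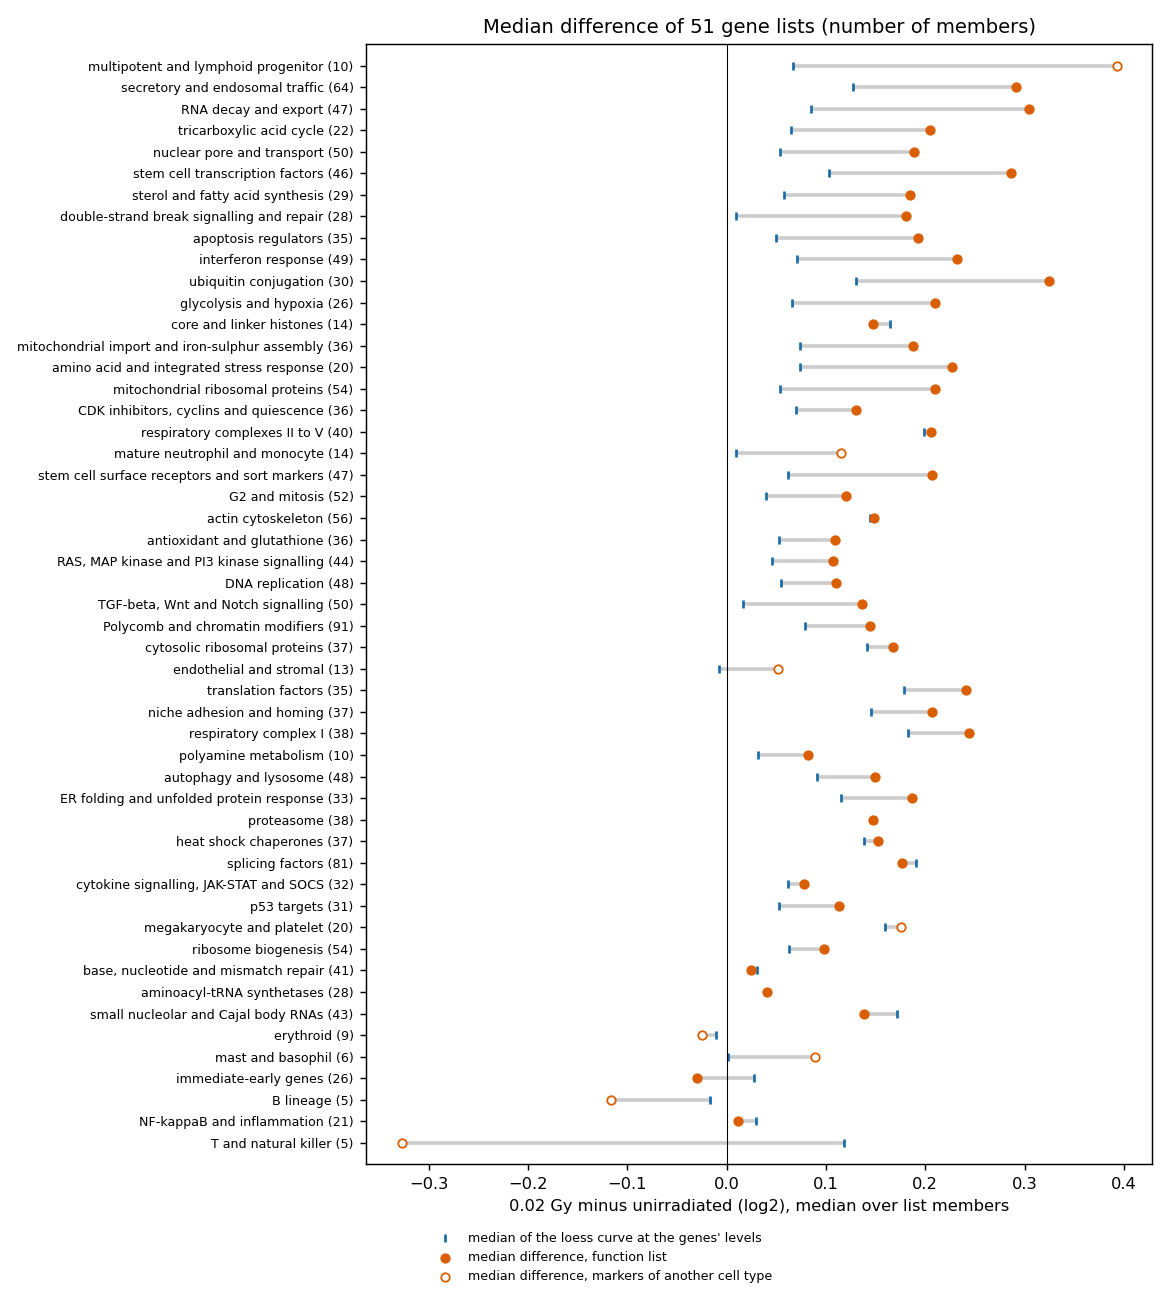
Median difference (0.02 Gy minus unirradiated, log2) of each of 51 gene lists, with the number of genes in brackets; filled circles are function lists, open circles markers of other cell types, and blue ticks the median of the loess curve at the same genes' levels. Lists are ordered by centred median, and secretory traffic and RNA decay lie farther to the right of their ticks than splicing factors or the proteasome.

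Genes that fold and destroy proteins lay mostly above 0, as did all genes at those levels, 63.4% in the eighth and 70.8% in the ninth decile. After centring, 24 of 30 ubiquitin conjugation genes were above 0, but 21 of 38 proteasome, 21 of 37 heat shock chaperone and 18 of 33 endoplasmic reticulum folding genes. Ubiquitin conjugation had the highest median of the 43 lists, 0.32 over 30 genes (centred 0.13), with 27 of 30 above 0. Besides Ube2z, the E2 enzymes Ube2d2a (7.17, 8.08 and 8.31) and Ube2d1 (7.02, 7.80 and 7.45) were higher, as were Ube2s, the chain-extending E2 of the anaphase-promoting complex (8.58, 9.41 and 8.94), and Skp1, the adaptor of SCF ligases (7.25, 8.12 and 7.11). Skp1 alone of these 5 was not higher at 2.5 Gy than in unirradiated cells. Of 38 proteasome genes 27 (71.1%) were above 0 with a median of 0.15, which is what their level predicts (centred 0.03). Psmc1, an ATPase of the proteasome's base, was at 5.75, 6.90 and 6.91, and the assembly chaperone Pomp at 6.03, 6.89 and 5.64. The interferon-inducible activator subunit Psme2 was at 6.51, 7.31 and 5.79. Pomp and Psme2 were lower at 2.5 Gy than in unirradiated cells, unlike Psmc1.

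Of 37 heat shock chaperone genes, 28 were above 0 with a median of 0.15 (centred 0.03), and Hspa8 and Dnajc8 were the ones past 2-fold. The HSP110-type chaperone Hspa4l was at 5.55, 6.39 and 5.86, the mitochondrial chaperonin Hspd1 at 6.04, 6.67 and 6.26, and the chaperonin subunit Cct2 at 6.46, 6.97 and 7.13. The stress-inducible HSP70 genes Hspa1a (4.08, 3.89 and 3.37) and Hspa1b (2.48, 2.94 and 2.82) and the HSP110 gene Hsph1 (3.73, 3.04 and 3.62), named after their values were seen, lay below the minimum on every array. Among 33 genes of endoplasmic reticulum folding the median was 0.19 and 25 were above 0. Dnajb9, a target of the unfolded protein response, was at 7.48, 8.22 and 7.59. Sdf2l1, another target, named after its values were seen, was lower at 5.76, 5.24 and 5.03. Slc38a2, a neutral amino acid transporter of the integrated stress response, was at 6.25, 7.28 and 7.67, and Ppp1r15a, the phosphatase subunit that ends that response, at 5.89, 6.54 and 7.0. Both were higher still at 2.5 Gy. The median of the 20 genes of that response was 0.23 (centred 0.10).

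Mitochondrial lists had medians above 0, part of which their level predicts. After centring, 15 of 22 genes of the tricarboxylic acid cycle and 37 of 54 mitochondrial ribosomal protein genes were above 0, but 21 of 38 in complex I, 21 of 40 in complexes II to V and 21 of 36 in import and iron-sulphur assembly. The tricarboxylic acid cycle had 16 of 22 genes above 0 and a median of 0.21 (centred 0.16), led by Ogdh, the E1 subunit of oxoglutarate dehydrogenase (5.32, 6.58 and 6.21), and Suclg2, a subunit of succinyl-CoA ligase (5.67, 6.52 and 6.33). Fumarate hydratase, Fh1, was at 5.45, 6.13 and 5.64. Mitochondrial import and iron-sulphur assembly had 28 of 36 above 0 and a median of 0.19 (centred 0.11). After Nfu1 came the inner-membrane import chaperone Timm8b (6.90, 7.96 and 7.10) and the J-protein Hscb, which helps release new iron-sulphur clusters (6.79, 7.57 and 7.07). The scaffold on which those clusters form, Iscu, was at 5.29, 5.84 and 5.14. Nfu1, Hscb and Iscu act in 1 pathway, and Iscu was not higher at 2.5 Gy. Of 54 mitochondrial ribosomal protein genes 41 were above 0, with a median of 0.21 (centred 0.10), and Mrpl42 (5.06, 6.24 and 4.70) and Mrpl10 (4.65, 5.72 and 5.22) were past 2-fold. Respiratory complex I had a median of 0.24 over 38 genes, close to its level expectation of 0.18. It held genes at both extremes, since Ndufa1 (7.13, 8.22 and 7.64) was 2-fold higher and Ndufs3 2-fold lower. Complexes II to V had 31 of 40 genes above 0 with a median of 0.21 (centred 0.09), and none past 2-fold, with Uqcrq of complex III (6.36, 7.27 and 7.0) the highest.

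In the metabolic lists outside the mitochondria, Scd2 and Gsto1 passed 2-fold, both higher. Glycolysis and hypoxia had 22 of 26 genes above 0 with a median of 0.21 (centred 0.13). Ero1a, the oxidase that drives disulphide formation and a hypoxia target, was at 5.03, 6.0 and 5.50, and Hif1a's partner Arnt at 5.90, 6.53 and 6.34. Pfkfb3, which makes the activator of phosphofructokinase, was lower at both doses (5.47, 4.73 and 4.72). Sterol and fatty acid synthesis had a median of 0.19 over 29 genes (centred 0.14), with the desaturase Scd2 (5.42, 6.52 and 6.45) and the elongase Elovl5 (5.55, 6.43 and 5.97) highest. The first enzyme of fatty acid synthesis, Acaca, was lower at 5.12, 4.56 and 5.26. Antioxidant and glutathione genes had 27 of 36 above 0 and a median of 0.11 (centred 0.07), and below Gsto1 stood the glutathione transferase Gstp1 (6.56, 7.33 and 7.15) and the peroxiredoxin Prdx4 (4.69, 5.37 and 5.04). Of 10 polyamine genes 6 were above 0, and Odc1, which starts polyamine synthesis, was lower at 6.87, 6.26 and 6.52.

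Translation genes followed their level. Cytosolic ribosomal protein genes had a median of 0.17 over 37 genes (centred 0.05), with 27 above 0. Rpl27 (5.94, 7.13 and 6.25) and Rpl37 (4.70, 5.73 and 5.18) were past 2-fold upwards, and Rpl13 was lower (6.63, 5.70 and 6.41). These genes have many pseudogene copies, so single values are uncertain. Translation factors had 28 of 35 genes above 0 and a median of 0.24 (centred 0.05). Eif5, which triggers start codon recognition, was at 5.01, 5.97 and 5.91, and Eif4ebp2, a repressor of cap-dependent initiation, at 6.87, 7.78 and 6.81. Aminoacyl-tRNA synthetases had a median of 0.04 over 28 genes (centred −0.01), and Aars, the alanyl enzyme, was the farthest from 0 (5.59, 5.01 and 5.87). Ribosome biogenesis had a median of 0.10 over 54 genes (centred 0.01) and none past 2-fold.

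RNA processing genes were read by step. Splicing factors had 65 of 81 above 0 and a median of 0.18, close to the 0.19 expected at their level (centred 0.02). Srsf3, an SR protein that also aids mRNA export, was highest (5.49, 6.44 and 6.16). U2af1, the subunit that reads the 3′ splice site, named after its values were seen, was lower (8.18, 7.52 and 8.06). RNA decay and export genes had 39 of 47 above 0 and a median of 0.30, with 0.08 expected from level and 0.19 after centring. Both subunits of the PAN deadenylase were higher, Pan2 at 5.28, 6.19 and 6.01 and Pan3 at 7.06, 7.92 and 7.28. The export adaptor Thoc5 was at 5.48, 6.27 and 5.47 and Lsm7, of the decapping-linked LSM ring, at 9.07, 9.86 and 8.98. Exosc1, described above, was the gene of this list past 2-fold, and it was lower. Thoc5 and Lsm7 at 2.5 Gy were back at the unirradiated value or below it. Nuclear pore and transport genes had 35 of 50 above 0 and a median of 0.19 (centred 0.16), with Nup98 (5.51, 6.67 and 5.98) and Nup214 (5.60, 6.42 and 5.76), pore proteins whose genes are fused to others in leukaemias, highest. Nup85, of the pore's outer ring, was lower (6.94, 6.26 and 6.62).

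Small nucleolar RNAs and small Cajal body RNAs guide the chemical modification of ribosomal and spliceosomal RNAs, and most are cut from introns of other genes. They were the class with the widest spread. The SD of the difference was 0.763 over 27 C/D box RNAs and 0.766 over 20 H/ACA box RNAs, against 0.337 over 8999 protein-coding genes, although the medians were −0.01 and 0.13. Of the C/D box RNAs 3 were 2-fold higher and 3 lower (11.1% each). Of the H/ACA box RNAs 3 were higher (15%) and 1 lower (5%), and of 5 small Cajal body RNAs 2 were higher (40%). The shares were 1.03% higher and 0.637% lower over all genes, and 2.34% and 0.749% in the top decile of level. The median level was 6.32 for C/D box and 6.86 for H/ACA box RNAs, beside 5.55 over all genes. The higher ones included Snora52 (7.33, 8.91 and 7.74), Snora64 (5.55, 7.12 and 6.07), Snord89 (7.85, 9.37 and 8.42), Snord65 (4.75, 6.22 and 5.52) and Scarna3a (5.47, 6.80 and 5.34). The lower ones included Snord15b (5.82, 4.59 and 5.80), Snord16a (5.81, 4.59 and 4.83), Snord71 (5.70, 4.56 and 5.76) and Snora44 (7.73, 6.68 and 7.86). In Snord15b, Snord71 and Snora44 the 2.5 Gy value was back at the unirradiated level.

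The genes that hold these RNAs in their introns differed less. By the positions of the reference annotation, 41 of the 52 small RNA genes lay inside 1 other measured gene, and in 40 cases that gene also passed the minimum. The robust SD was 0.770 for the small RNAs and 0.353 for the genes around them, counting each pair once, and a few genes hold 2 of the RNAs. The next pairs are named after their values were seen. Snord14e was lower (7.19, 6.27 and 7.82) inside Hspa8, the gene with a difference of 1.67. Snord15b lay in Rps3, which differed by 0.00, and Snord16a in Rpl4, which differed by 0.29. Scarna3a lay in the ubiquitin ligase gene Cop1 (7.82, 7.86 and 8.33). Snora28 (5.86, 7.05 and 6.61) and its gene Eif5 were both higher, by 1.19 and 0.97. Within Snhg12, a host of several small nucleolar RNAs, Snora44 had a difference of −1.05 and Snora16a one of 0.52, although Snhg12 itself differed by 0.32.

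**Figure D4:**
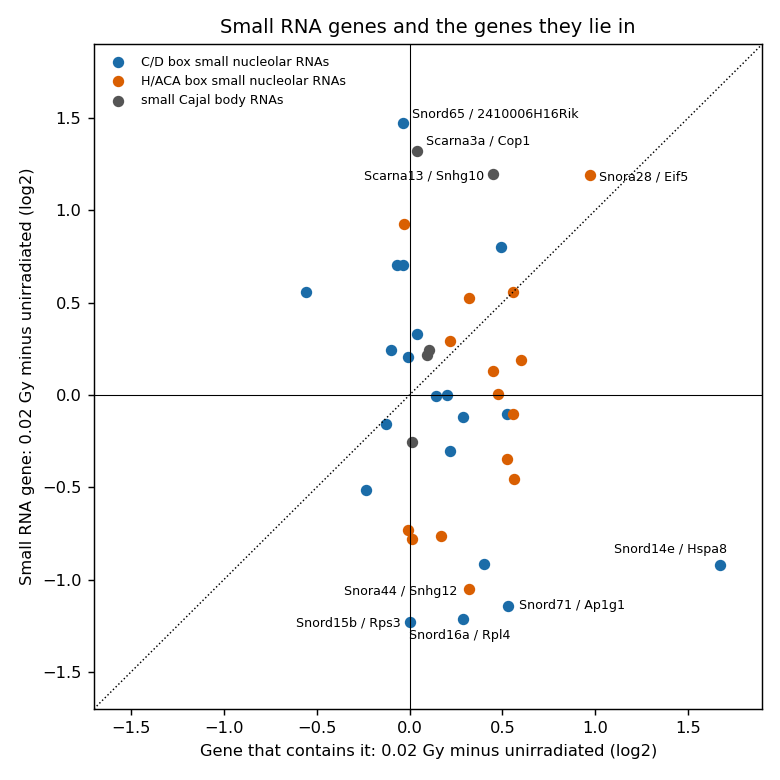
Each point is 1 of the 40 small RNA genes that lie inside another gene past the minimum, with the containing gene's difference (0.02 Gy minus unirradiated, log2) on the horizontal axis, that of the small RNA on the vertical axis and the line of equal differences dotted. The points spread from −1.23 to 1.47 vertically, while all but Hspa8 lie between −0.56 and 0.97 horizontally.

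Membrane traffic and the cell surface came next. Secretory and endosomal traffic had the highest centred median of the function lists, 0.21, with a median of 0.29 and 53 of 64 genes above 0. None of the 64 was past 2-fold, beside 2.53% of all genes in the eighth decile, where the list's median level lay. Rab4a, a GTPase of fast endosomal recycling, was at 7.77, 8.72 and 8.15, the ESCRT-I subunit Tsg101 at 6.44, 7.32 and 7.01, and the retromer genes Snx2 (6.08, 6.90 and 6.53) and Vps35 (5.66, 6.40 and 6.03) were likewise higher. In all 4 the 2.5 Gy value lay between the others. Actin cytoskeleton genes had 45 of 56 above 0 with a median of 0.15 (centred 0.07), and 0.33 with the minimum at the 75th percentile. In that list Myl12b, a myosin regulatory light chain, was past 2-fold (6.12, 7.25 and 6.47). Autophagy and lysosome genes had 34 of 48 above 0 and a median of 0.15 (centred 0.04), with the cathepsin Ctsa at 5.50, 6.50 and 5.99. Niche adhesion genes had 30 of 37 above 0 and a median of 0.21 (centred 0.05), with the sialomucin Cd164 at 6.58, 7.54 and 7.13 and Pecam1 at 6.11, 6.99 and 6.54.

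Genes of the DNA damage response lay on both sides of 0. The robust SD of the differences was 0.348 for p53 targets and 0.382 for double-strand break genes. It was 0.390 for base, nucleotide and mismatch repair genes, beside 0.317 over all genes. Of 31 p53 target genes past the minimum, 18 were above 0 and 13 below, the median was 0.11 and the centred median 0.01. The one past 2-fold was Ephx1, an epoxide hydrolase (5.24, 6.25 and 5.72), and Sesn1, a sestrin that restrains mTORC1, was next (4.71, 5.60 and 5.0). Ccng1, which encodes cyclin G1, was at 7.32, 7.95 and 9.34, and Cdkn1a, which encodes the CDK inhibitor p21, at 5.65, 6.12 and 7.30. Mdm2, the ubiquitin ligase for p53, was at 5.29, 5.23 and 6.56. Btg2, an antiproliferative p53 target, lay below the minimum on the unirradiated array (4.40, 5.24 and 5.95). For Ccng1, Cdkn1a and Btg2 the 0.02 Gy value lay between the others, and for Mdm2 it was at the unirradiated value, while Ephx1 and Sesn1 were highest at 0.02 Gy.

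Double-strand break signalling and repair had 22 of 28 genes above 0 and a median of 0.18, with 0.01 expected from level (centred 0.14). H2ax, the histone variant phosphorylated at breaks, was at 5.03, 5.83 and 5.95, Atrip, the partner of ATR, at 5.02, 5.68 and 5.93, and Nbn, of the MRN break sensor, at 5.42, 6.01 and 5.89. Trp53bp1, which promotes end joining, was lower (6.39, 5.73 and 6.05), as was the ubiquitin ligase Rnf8 that recruits it (5.41, 4.90 and 5.57). None of the 28 reached 2-fold, beside 1.40% of all genes in the fourth decile, where the list's median level lay. Base, nucleotide and mismatch repair genes had a median of 0.02 over 41 genes, and Smug1, a uracil-DNA glycosylase, was the farthest from 0 (5.53, 4.63 and 4.80). Apoptosis regulators had 27 of 35 above 0 and a median of 0.19 (centred 0.14), among them the mitochondrial protease Htra2 (5.41, 6.28 and 6.18), the survival gene Bcl2 (6.49, 7.26 and 7.03) and Casp6 (4.76, 5.41 and 4.38).

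NF-κB and immediate-early genes had the lowest centred medians of the function lists. NF-κB and inflammation had 11 of 21 genes above 0, a median of 0.01 and the lowest centred median, −0.14. Cxcl2, a neutrophil chemokine, was at 6.02, 5.36 and 7.78, so it was lowest at 0.02 Gy and highest at 2.5 Gy. Nfkb2, the p100 subunit, had the same order (5.04, 4.63 and 6.29). So did its partner Relb (5.45, 5.06 and 5.95), named after its values were seen. The subunit gene Rel was higher at both doses (5.37, 5.92 and 6.15), as were Birc2 (5.64, 6.08 and 5.98) and Ccl3 (6.34, 6.76 and 7.40). Immediate-early genes had 12 of 26 above 0 and a median of −0.03, the one function list below 0 (centred −0.07), though the mean was 0.05 and the median 0.10 when the minimum was the 75th percentile. Myc (6.06, 6.62 and 7.67), Junb (5.62, 6.16 and 6.90) and Rgs1, a regulator of chemokine receptor signalling (6.28, 7.03 and 7.24), were higher at 0.02 Gy and higher again at 2.5 Gy. Ier5l (5.22, 4.68 and 4.99) and Arc (6.21, 5.81 and 6.01) were lower at both doses. The NF-κB median turned sign with the setting, at −0.14 after quantile normalization, −0.08 without a minimum and 0.25 with the minimum at the 75th percentile.

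Interferon response genes had 38 of 49 above 0 and a median of 0.23, with 0.07 expected from level (centred 0.13). Ifi47, an interferon-inducible GTPase, was past 2-fold (5.70, 6.96 and 6.77), and its relative Irgm1, needed for stem cell quiescence in mice, was next (5.23, 6.15 and 5.92). Pml, the organiser of nuclear bodies, was at 5.64, 6.51 and 5.55, Samd9l, a growth restraint of blood progenitors, at 5.11, 5.94 and 5.30, and Parp9 at 4.96, 5.64 and 4.63. The GTPases were also high at 2.5 Gy, but Pml, Samd9l and Parp9 were near or below the unirradiated value there. Among other genes of the pathway, Isg15 stayed below the minimum (3.80, 4.09 and 3.69), and Ifit1 was lower at 0.02 Gy (5.76, 5.32 and 5.13). Both were named after their values were seen, and 11 of the 49 genes were below 0.

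Cell cycle lists had small positive medians. DNA replication genes had a median of 0.11 over 48 genes (centred 0.06), with the clamp loader Rfc4 (4.94, 5.90 and 5.05) highest and the clamp Pcna at 8.19, 8.76 and 8.11. G2 and mitosis genes had 38 of 52 above 0 and a median of 0.12 (centred 0.07). Anapc10, a subunit of the anaphase-promoting complex, was past 2-fold (4.57, 5.74 and 4.87), and Fbxo5, an inhibitor of that complex, was at 6.63, 7.29 and 5.61. Cyclins, CDK inhibitors and quiescence genes had 23 of 36 above 0 and a median of 0.13 (centred 0.10). Cdk6, which sets how readily stem cells leave quiescence, was at 6.01, 6.73 and 7.17, and the antiproliferative gene Btg3 was lower at both doses (6.22, 5.58 and 5.57). Rfc4, Pcna and Anapc10 were highest on the 0.02 Gy array, and Fbxo5 was lowest at 2.5 Gy.

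Stem cell transcription factors had 36 of 46 genes above 0 and a median of 0.29, with 0.10 expected from level (centred 0.15). Ikzf1, the lymphoid and stem cell regulator Ikaros, was at 5.54, 6.41 and 5.24, Etv6, needed to keep adult stem cells in marrow, at 7.53, 8.26 and 7.91, and Zfpm1, the GATA1 cofactor, at 6.25, 6.89 and 6.55. Tcf3 (4.59, 5.19 and 4.98) and Cited2 (6.06, 6.65 and 6.59) completed the highest 5, and Mecom was at 5.73, 6.22 and 6.12. None was past 2-fold. Polycomb and other chromatin genes had 60 of 91 above 0 and a median of 0.14 (centred 0.06). The remodeller subunit Pbrm1 (4.94, 6.09 and 5.81) was past 2-fold, followed by Rnf2, the catalytic subunit of PRC1 (5.33, 6.30 and 6.21), the ATPase Smarca5 (5.97, 6.93 and 6.18) and Bmi1 (6.48, 7.26 and 6.84). In Rnf2 and Pbrm1 both irradiated arrays were high, while Smarca5 stood out at 0.02 Gy alone.

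Receptors and signalling genes were read last among the functions. Surface receptors and sort markers had 36 of 47 above 0 and a median of 0.21 (centred 0.08), led by the shared cytokine receptor Il6st (5.02, 6.01 and 5.91) and the drug efflux pump Abcb1b (4.97, 5.89 and 5.95). The cytokine receptor chain Csf2rb2 was higher at 0.02 Gy only (6.50, 7.41 and 6.36). In JAK-STAT signalling the median was 0.08 over 32 genes, with Stat5b (4.79, 5.79 and 5.62) and Jak2 (6.21, 7.01 and 6.43), which act together below the thrombopoietin receptor, the highest. RAS, MAP kinase and PI3 kinase genes had a median of 0.11 over 44 genes, and Map2k1 (4.57, 5.35 and 4.90) and Akt1 (6.03, 6.66 and 6.35) were among the highest. In the TGF-β, Wnt and Notch list Psenen was joined by a second γ-secretase subunit, Ncstn (5.92, 6.79 and 6.09), and by Smad1 (5.37, 6.17 and 6.03) and Gsk3b (5.38, 6.22 and 6.31), and the list median was 0.14 over 50 genes (centred 0.06).

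Marker genes of other blood and stromal cells were read on the same arrays. In RNA from bulk cells, fewer cells of a type and less RNA per cell cannot be told apart. Of 29 neutrophil and monocyte genes measured 14 passed the minimum on both arrays, and the summed log2 level over all 29 was 132.9, 134.1 and 135.5. Of the 14, 8 were above 0, with a median of 0.12 (centred 0.09). The list median was 0.013 without a minimum and 0.44 with it at the 75th percentile. The alarmin genes S100a8 (5.57, 6.87 and 6.81) and S100a9 (6.82, 7.94 and 8.38) were past 2-fold, and the primary granule protease Elane was at 4.96, 5.89 and 5.08. The mature granule genes Ltf (4.31, 3.80 and 4.27), Camp (3.02, 3.38 and 2.73), Ngp (4.23, 3.32 and 3.31) and Lcn2 (4.04, 4.27 and 4.16), named after their values were seen, stayed below the minimum, where a change cannot be read. The lysozyme gene Lyz1 was lower (5.65, 4.92 and 5.09). Mcpt8, the basophil protease, was at 5.63, 7.08 and 5.72, a difference of 1.46. Cpa3 (3.90, 4.24 and 3.90) and Fcer1a (2.46, 2.56 and 2.29), also named after their values were seen, stayed below the minimum. The summed level of 14 mast and basophil genes was 60.0, 61.9 and 59.1. Of the 6 that passed, 3 were above 0, with a median of 0.09 (centred −0.04).

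Markers of multipotent and lymphoid progenitors, the neighbouring cell types of the sort, had the highest median of all 51 lists, 0.39 over the 10 of 15 genes that passed (centred 0.31), with 8 of 10 above 0. Cd52, a GPI-anchored lymphocyte antigen, was at 4.83, 5.79 and 5.0, and Cd34, a progenitor sialomucin, at 7.04, 7.50 and 6.72. Ighm, the μ heavy chain, named after its values were seen, was at 7.38, 8.08 and 7.24. The summed level of the 15 progenitor genes was 77.8, 80.4 and 79.5, and the part of such cells in the result was not tested. Flt3, Cd27 (5.53, 5.97 and 6.10) and Sox4 (5.66, 6.16 and 7.04) were also higher. Dntt (3.60, 3.61 and 3.36), Il7r (3.82, 3.37 and 3.77) and Cd48 were among the 5 genes that did not pass, the first 2 named after their values were seen. Without a level minimum the median of this list was 0.21. Megakaryocyte and platelet genes, many of which stem cells also express, had 16 of 20 above 0 with a median of 0.18, as their level predicts (centred 0.01), and Rgs18, a regulator of platelet G proteins, was past 2-fold (7.0, 8.08 and 7.44).

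T and natural killer cell genes went the other way. All 5 that passed were below 0, with a median of −0.33, and the farthest were Cd5 (5.42, 4.74 and 5.30), Nkg7 (6.50, 5.97 and 5.88) and the perforin gene Prf1 (6.32, 5.99 and 5.94). The summed level of the 22 genes measured was 99.0, 93.7 and 96.7, and the T cell receptor gene Cd3e (4.12, 3.76 and 4.21), named after its values were seen, was below the minimum throughout. B lineage genes had 1 of 5 above 0 and a summed level over 16 genes of 70.3, 67.2 and 68.2. Erythroid genes had 3 of 9 above 0, with Car2 (8.47, 9.11 and 8.97) and Slc4a1 (5.22, 4.86 and 4.85) on opposite sides, and a summed level over 20 genes of 93.0, 92.4 and 92.7. Endothelial and stromal genes had a median of 0.05 over 13 genes and a summed level over 24 of 112.8, 113.6 and 114.4. For each of these cell types the part in the differences between the arrays was not tested.

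Some genes crossed the minimum between the arrays and have no fold here, because a value below it has an unknown relation to background. Outside the families 593 genes lay below it on the unirradiated array only, 54 of them with a gap of at least 2-fold, and 897 on the 0.02 Gy array only, 38 with such a gap. The widest gap was that of Sms, spermine synthase, which was at 3.16, 6.47 and 4.98. The ribosomal protein gene Rpl30 was at 2.98, 5.70 and 3.79, and Hamp, which encodes the iron hormone hepcidin, at 2.84, 5.05 and 5.15. Scarna2 was low in unirradiated cells alone (3.72, 6.39 and 6.86), but Scarna8 (3.78, 5.83 and 4.02), Snord61 (3.41, 5.84 and 3.80) and the guanylate-binding protein gene Gbp8 (3.75, 5.61 and 4.07) stood out at 0.02 Gy alone. In the other direction were Gml2 (5.91, 3.92 and 5.30), the butyrophilin-like gene Btnl4 (5.80, 3.83 and 3.73), Fcf1, a factor of 18S ribosomal RNA processing (5.87, 4.06 and 6.13), and the mitochondrial ribosomal protein gene Mrps14 (5.80, 4.25 and 3.88). The small nucleolar RNAs Snora69 (4.69, 2.73 and 4.70) and Snora31 (5.36, 3.69 and 5.99) were low at 0.02 Gy and back at 2.5 Gy.

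The classes of gene had medians on both sides of 0. The median was 0.070 for 8999 protein-coding genes, −0.08 for 596 long non-coding RNAs, −0.13 for 171 olfactory, vomeronasal and taste receptors and −0.19 for 147 microRNA genes. Olfactory, vomeronasal and taste receptors had no gene 2-fold higher and 14 lower (8.19%), beside 1.03% and 0.637% of all genes. Immunoglobulin and T cell receptor segments had 5 of 93 higher (5.38%) and 5 lower. The centred medians of the families were also below 0, at −0.19 for the receptors and −0.26 for the microRNA genes. The farthest values of all lay in the families, whose near-identical copies make single values uncertain, and those named next were picked after their values were seen. Igkv6-13, a κ light chain segment, was at 5.70, 8.59 and 4.92, and Btbd35f1 at 7.34, 5.16 and 7.01. Among histone genes H2bc7 was at 5.03, 7.53 and 6.19, a difference of 2.49, and H2ac20 at 6.29, 7.94 and 7.87, a difference of 1.65. The other listed histone genes were closer to 0. The median of 14 was 0.15, with 0.17 the median expected from level, and the centred median was 0.12, with 8 of 14 above 0 after centring. Without a level minimum the list median was 0.014, and with the minimum at the 75th percentile 0.020.

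**Figure D5:**
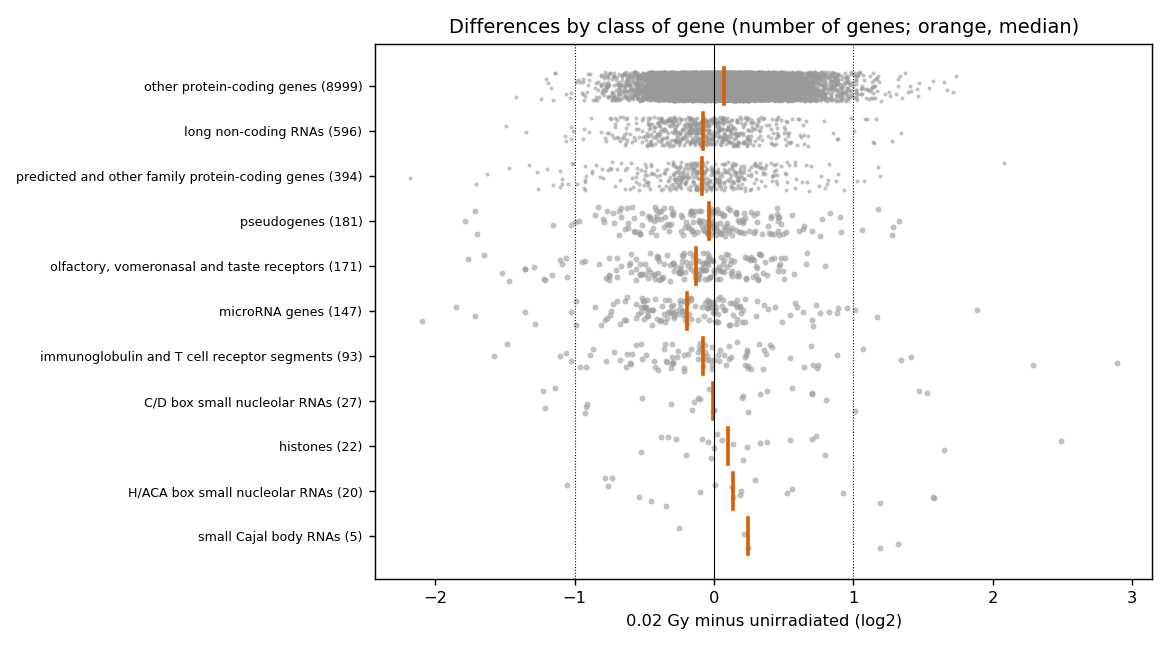
Differences (0.02 Gy minus unirradiated, log2) of single genes by class, with the number of genes in brackets, an orange bar at each median and dotted lines at 2-fold; vertical scatter within a class is only to separate points. Protein-coding genes form the narrow cloud at the top, small nucleolar RNAs spread to both sides, and the receptors and microRNA genes lie to the left with medians of −0.13 and −0.19.

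Of the 147 microRNA genes past the minimum, 3 (2.04%) passed 2-fold upwards and 6 (4.08%) downwards, beside 1.03% and 0.637% of all genes, and 124 had a mature sequence in the RefSeq table. The whole-transcript array reads the gene, not the mature microRNA, so these values say nothing of the mature strand. The sequences below are from some of the genes past 2-fold, because mature sequences on a chromosome were left out. They are shown because a microRNA's targets are set by its seed (bases 2 to 8), which is in capitals.
miR-28a-5p: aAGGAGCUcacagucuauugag
miR-28a-3p: cACUAGAUugugagcugcugga
miR-1951: gUAGUGGAgacugguguggcua
miR-680: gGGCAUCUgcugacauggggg
miR-7b-5p: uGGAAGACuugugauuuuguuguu
miR-7b-3p: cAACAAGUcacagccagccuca
miR-194-5p: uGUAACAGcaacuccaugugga
miR-194-1-3p: cCAGUGGAgcugcuguuacuuc
miR-1896: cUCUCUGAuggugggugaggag
miR-5124a: gGUCCAGUgacuaagagcau
The 10 mature sequences shown carry 10 different seeds, so no seed was shared among them. Whether the genes past 2-fold that are not shown share a seed with them was not examined. Mir28a, which lies on chromosome 16 in GRCm38.p6, was at 7.0, 4.90 and 6.50, the lowest difference among those shown (−2.10). Mir1951 on chromosome 2 was at 6.98, 5.12 and 5.28. The first was back near the unirradiated value at 2.5 Gy and the second was not. Mir680-1 was at 8.54, 7.19 and 8.46, Mir7b at 6.38, 5.09 and 5.70, and Mir194-1 at 6.02, 4.99 and 5.41. On the higher side Mir5124a was at 5.12, 7.0 and 5.92 and Mir1896 at 6.06, 7.07 and 6.24, both on chromosome 13. All of these were named after their values were seen.

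Promoters were searched for what the differing genes share. For each gene RefSeq's GRCm38.p6 table gives 250 bases before to 50 after the start, and 7453 of the 9180 genes outside the families, 64 of the 82 higher and 10 of the 16 lower ones had an entry. Searched on both strands were TATAAA for the TATA box, CCAAT for the site of NF-Y, GGGCGG for the GC box of Sp1, CCGGAAG for ETS factors, GCATGCGC for NRF1, AAGATGGCG for YY1, CACGTG for the E-box, TGACGTCA for the cyclic AMP response element, GAANNTTC for the heat shock element core, GAAANNGAA for the interferon response element core and TTCNNNGAA for the STAT site. Letters of the last 3 motifs can overlap. The TATA box was in 9 of the 64 promoters (14.1%), in 551 of the 7453 (7.39%) and in 14.2% of all 27025 promoters in the table. The 9 genes were S100a8, Ifi47, S100a9, Vcp, Maged2, Laptm4a, Myct1, Ephx1 and Trim30d, with differences from 1.01 to 1.30. The GC box was in 67.2% of the 64 and 63.5% of the 7453, the ETS letters in 21.9% and 17.5%, CCAAT in 37.5% and 37.4%, and the E-box in 3.13% and 9.77%. The heat shock core was in 3.13% and 5.33%, and the interferon core in 6.25% and 6.83%. These shares were not tested. A promoter with a TATA box and one with ETS and CCAAT letters are shown for comparison, from 250 bases before the start up to it, with matches in capitals. The first is S100a8, chr3:90668821-90669070 on the plus strand, with the TATA box at −30 from the start. The second is Psenen, chr7:30563628-30563877 on the minus strand, with CCAAT on the opposite strand at −77 and the ETS letters at −62.
S100a8: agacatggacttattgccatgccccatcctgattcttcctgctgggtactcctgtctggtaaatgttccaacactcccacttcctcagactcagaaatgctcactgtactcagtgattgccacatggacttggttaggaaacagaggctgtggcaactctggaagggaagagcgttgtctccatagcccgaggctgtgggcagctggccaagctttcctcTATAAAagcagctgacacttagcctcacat
Psenen: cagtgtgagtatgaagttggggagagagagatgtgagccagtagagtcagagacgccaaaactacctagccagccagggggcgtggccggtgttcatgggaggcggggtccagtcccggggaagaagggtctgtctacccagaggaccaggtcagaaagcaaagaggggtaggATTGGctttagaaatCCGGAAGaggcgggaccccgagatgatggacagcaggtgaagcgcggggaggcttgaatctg
The first gene was high on both irradiated arrays and the second on the 0.02 Gy array only.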

How the data were processed

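Total RNA, purified 2 hours after exposure, was labelled with biotin by the Affymetrix whole-transcript method, per the labels. What was analysed is 1 log2 value per array for each of 25206 probe sets, as deposited by the authors, and each dose had a single array. Partek is the tool named, without version or role, per the submitters' processing notes, and how background, scale and probes were handled is not stated there. The deposited values ran from 1.55 to 12.4, with array medians of 4.60 (unirradiated), 4.54 (0.02 Gy) and 4.55 (2.5 Gy), so the arrays did not share 1 distribution, and signal over background is unknown. The number of arrays limits the precision.

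Gene names came from the platform annotation, and 2021 probe sets had none. The level minimum, 4.55, is the median over named genes of the mean of the 3 arrays. Differences were taken gene by gene. The loess curve used a span of 0.3 with 3 iterations (statsmodels 0.14.6, Python 3.11.15). Of 2466 list symbols 2288 matched, 35 through an older name, and some genes are on several lists. The members and lists were chosen with earlier results of these data known. Named outside the families were the 20 highest and 20 lowest differences and the 5 highest and lowest centred differences per quartile of level. Also named there were the 5 genes of each list farthest from 0, the 10 highest levels and the 10 widest gaps across the minimum in each direction. So were 12 fixed genes, not all of them measured, and a fixed set of stem cell markers. Others are marked. No test was run. The counting and centring were tested on simulated data.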

Additional observations from a re-analysis of the deposited data

Results flagged for a closer look

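The report uses named genes alone, and unnamed probe sets also showed differences. Of 991 such probe sets at or above 4.55 on both arrays, 17 were at least 2-fold higher at 0.02 Gy and 7 lower, with a median difference of 0.068. Without names or replicates they can be read only as counts.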

How the results depend on the processing

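No paired analysis was possible because there is a single array at each dose, and for that reason no array could be left out. Counts are genes at least 2-fold higher, then lower, with 110 and 68 as reported. They were 259 and 272 without a level minimum, 154 and 133 with the minimum on the mean of the 3 arrays, and 66 and 20 with it at the 75th percentile. They were 78 and 95 after quantile normalization, 148 and 51 after median centring, and 71 and 88 after level centring. Without families they were 82 and 16, at 1.5-fold 738 and 362, and at 3-fold 10 and 11. Level minimum and fold size set which genes can be counted; for the scalings the cause was not tested. Of the 68 lower genes, 68 were still past 2-fold after quantile normalization, 67 after level centring and 51 after median centring. The median over all genes lay between −0.018 (no level minimum) and 0.115 (median centring), and that of the top decile between −0.0026 (level centring) and 0.288 (median centring). For named genes, all 906 values under the 3 scalings stayed within a robust SD, taken over their decile of level, of the reported value. The shifts made by these scalings are small beside that SD, so this outcome was nearly set beforehand and is no check of single genes. Of 302 list medians under the alternatives, 164 moved by less than the robust SD over the list's genes divided by the square root of their number, and 138 by more. No measure of background was used, so which low genes lay above it cannot be said.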

Other observations

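Some deposited values occur more than once in the table. Of the 10676 genes, 552 had a value that recurs, to all deposited digits, at another probe set or on another array, 462 of them on 1 of the 2 arrays and 90 on both, and 25 of these had exactly the same value on both arrays, a difference of exactly 0. Among genes with a recurring value 11 were at least 2-fold higher and 10 lower, of 552, against 99 and 58 of the 10124 others. Outside the families these included Nfu1, Psenen, Ifi47, S100a8, Ube2z, Ogdh and Rgs18 on the higher side and Snord71 and Sdc4 on the lower side. How such values arose is not given in the sources used here and was not tested.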
